A study of Rattus norvegicus with 7 samples.

Results

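Genes of the neuronal microtubule and growth cone, the 9 genes Tubb3, Tubb2b, Map2, Mapt, Stmn2, Gap43, Dcx, Crmp1 and Dpysl3, were followed through 72 hours of cyclic tensile stress. Every probe set whose platform annotation gave exactly 1 of these symbols was taken, which gave 17 probe sets for the 9 genes out of 31042 non-control probe sets on the array, 20826 of them with a single gene symbol. Cells of the spinal cord of E15 Sprague-Dawley rat embryos were kept in primary culture for 3 days and then stretched on a flexible membrane at 10% strain and 0.5 Hz. Total RNA was collected before loading (0 h) and after 2, 6, 12, 24, 48 and 72 h of stress. At each time the RNA of 5 animals was pooled and hybridized to 1 GeneChip Rat Genome 230 2.0 array, so that there were 7 arrays and no replicate of any time. No array of an unstretched culture at a later time was analysed here, so hours of stress and hours in culture cannot be told apart. The strain on such a membrane is not uniform across the well, so cells of 1 culture were not all stretched alike.

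A growing neuron extends an axon whose shaft is filled with microtubules, polymers of alpha and beta tubulin, and whose tip, the growth cone, steers by way of actin and the plasma membrane. Neurons use their own beta tubulin isotypes (Tubb3, Tubb2b), coat microtubules with stabilizing proteins that differ between dendrites (Map2) and axons (Mapt, which encodes tau), and keep the growing ends labile with stathmin proteins (Stmn2, also called SCG10). Dcx (doublecortin) binds microtubules in migrating young neurons, Gap43 is a membrane protein of the growth cone and of regenerating axons, and Crmp1 and Dpysl3 (CRMP4) are collapsin response mediator proteins that link guidance signals to the cytoskeleton.

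Promoter sequences of these genes are shown because the genes moved together over the arrays. RefSeq sequences of the rat assembly GRCr8, running 250 bases before to 50 bases after the annotated start, were matched by symbol for 6 of the 9 genes, with 7 promoters in all, and Mapt, Stmn2 and Gap43 had no match. Both strands were searched for 4 motifs, the GC box GGGCGG, the TATA box TATAAA, the core TGACG of the cyclic AMP response element and the E-box CANNTG. In the 4 promoters printed here capitals mark the GC box, the TATA box and TGACG, and no base belonged to more than 1 of these. The Tubb3 window lies at chr19:68365437-68365736 on the plus strand, that of Tubb2b at chr17:30952836-30953135 on the plus strand, that of Crmp1 at chr14:77780867-77781166 on the minus strand and that of Dcx at chrX:112304112-112304411 on the minus strand.
Tubb3: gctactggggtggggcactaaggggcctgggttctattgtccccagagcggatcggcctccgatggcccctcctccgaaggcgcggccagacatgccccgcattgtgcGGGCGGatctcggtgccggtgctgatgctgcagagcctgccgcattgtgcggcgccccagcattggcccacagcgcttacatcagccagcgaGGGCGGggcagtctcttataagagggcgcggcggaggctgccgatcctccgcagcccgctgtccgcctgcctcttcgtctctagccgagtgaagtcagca
Tubb2b: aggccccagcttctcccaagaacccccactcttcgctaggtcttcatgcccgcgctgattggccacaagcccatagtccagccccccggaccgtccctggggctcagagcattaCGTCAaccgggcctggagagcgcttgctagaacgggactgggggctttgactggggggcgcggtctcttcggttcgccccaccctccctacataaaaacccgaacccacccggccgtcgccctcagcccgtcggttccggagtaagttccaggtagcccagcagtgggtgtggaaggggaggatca
Crmp1: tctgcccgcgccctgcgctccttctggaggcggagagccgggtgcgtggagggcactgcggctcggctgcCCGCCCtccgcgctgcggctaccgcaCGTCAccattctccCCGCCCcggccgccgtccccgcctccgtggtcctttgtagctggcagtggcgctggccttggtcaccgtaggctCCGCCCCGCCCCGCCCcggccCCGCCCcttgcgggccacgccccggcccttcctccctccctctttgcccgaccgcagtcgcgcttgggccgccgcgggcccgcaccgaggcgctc
Dcx: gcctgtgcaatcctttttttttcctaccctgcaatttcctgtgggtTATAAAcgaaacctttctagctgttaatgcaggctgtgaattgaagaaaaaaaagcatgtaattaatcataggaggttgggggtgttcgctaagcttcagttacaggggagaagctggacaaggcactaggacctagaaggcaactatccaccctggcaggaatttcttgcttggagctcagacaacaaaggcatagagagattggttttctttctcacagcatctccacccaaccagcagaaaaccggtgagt
The GC box was present in 4 of the 7 promoters, with 6 matches in Crmp1, 2 in Tubb3 and at least 1 in each of the Dpysl3 promoters, against 33.1% of the 33469 rat promoters of the same length. TGACG was found in Crmp1 and Tubb2b and in 21.2% of all promoters, and TATAAA in Dcx alone and in 14.2% of all promoters. The E-box occurred in 3 of the 7, those of Map2 and Dpysl3, against 72.1% of all promoters. Base composition also differed, with 77.7% G and C in Crmp1, 67.3% in Tubb3, 64.3% in Tubb2b, 45.0% in Dcx and 33.3% in Map2, beside a median of 51.7% over all promoters. No motif of the 4 was thus common to all of the matched promoters. A match says only that the letters are there.

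Of the 17 probe sets, 12 had a mean signal of at least 100 over the 7 arrays and entered the fits, and they covered all 9 genes. The other 5 were Tubb3 1369901_at, Gap43 1371287_at, Dcx 1387601_at and Dpysl3 1391010_at, with signals between 0.290 and 66.3, and a further Map2 probe set just below the limit with a mean of 97.6. That Map2 probe set, 1368411_a_at, read 194 at 0 h, 103, 77.8, 56.2, 102 and 71.3 at the times between, and 78.6 at 72 h, which is the same shape as its brighter partner described below. The dim probe sets of the other genes had no common shape. In Affymetrix naming the suffix of the Tubb3 probe set 1371618_s_at means that its probes can also match other transcripts, so signal of a similar tubulin may be included in it. MAS5.0 signals depend on the probes, so only the change of a probe set over time was compared, not 1 gene's level with another's.

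**Figure D1:**
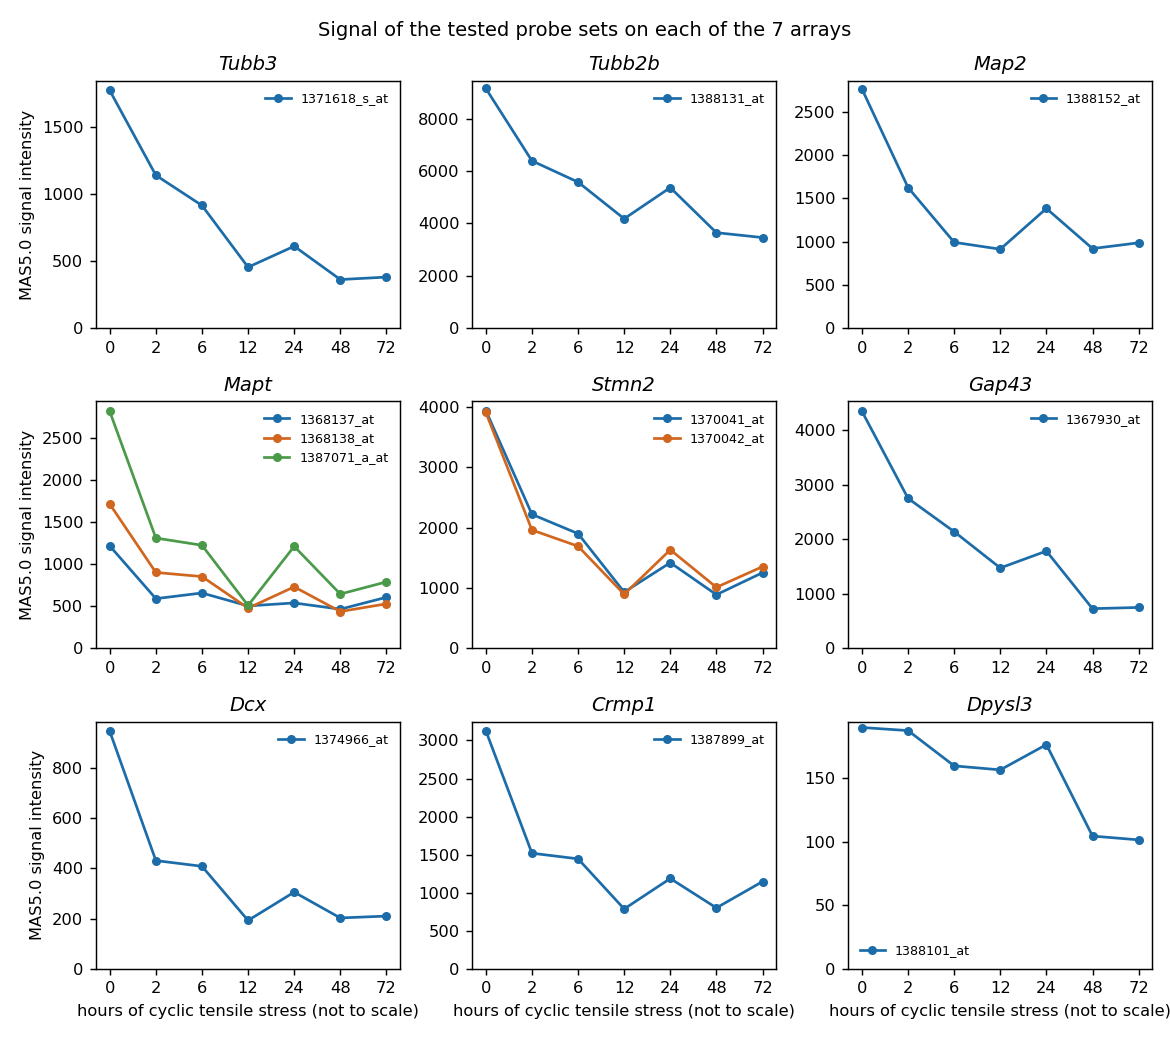
MAS5.0 signal intensity (vertical axis, starting at 0 in each panel) of the 12 tested probe sets by hours of stress (horizontal axis, evenly spaced and not to scale), with 1 panel per gene and 1 point per array. Every line is highest at 0 h, and every line has a low point at 12 h between higher values at 6 and 24 h.

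Among the neuronal tubulins, Tubb3 had a signal of 1771 at 0 h, 1139 at 2 h, 914 at 6 h, 453 at 12 h, 609 at 24 h, 361 at 48 h and 379 at 72 h. The Tubb2b probe set read 9159, 6391, 5579, 4176, 5368, 3644 and 3457 at the same times. Both were lower on every array after 0 h, and at 72 h Tubb3 stood at 0.214 and Tubb2b at 0.377 of the 0 h signal. Tubb3 is the isotype most used as a marker of young neurons, while Tubb2b is needed for the migration of cortical neurons. Both were above their 12 h signal at 24 h and below it at 48 and 72 h, with ratios of 72 h to 12 h of 0.837 for Tubb3 and 0.828 for Tubb2b.

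The genes of microtubule-associated proteins were well below their 0 h signal by 6 h, as were Stmn2, Gap43, Dcx and Crmp1. For Map2 the signal was 2765 at 0 h, 1625 at 2 h, 991 at 6 h, 912 at 12 h, 1383 at 24 h, 919 at 48 h and 986 at 72 h. Map2 was thus the member with the lowest ratio at 6 h, at 0.358 of the 0 h signal, and its values at 6, 12, 48 and 72 h all lay between 912 and 991. Mapt was measured by 3 probe sets. Its 1387071_a_at probe set gave 2819, 1313, 1227, 510.3, 1214, 646 and 791 from the first array to the last, 1368138_at gave 1717, 903, 855, 479, 732, 438 and 530.0, and 1368137_at gave 1219, 592, 659, 505, 540.3, 466 and 608. All 3 were below their 0 h signal on each later array, but they differed in depth, with ratios of 12 h to 0 h of 0.181, 0.279 and 0.414 in the same order. On the log2(signal + 32) scale the first and the last of these differed by 1.17 at 12 h, the largest disagreement between tested probe sets of 1 gene. The return at 24 h differed as well, to 2.38 times the 12 h signal for 1387071_a_at, against 1.53 for 1368138_at and 1.07 for 1368137_at.

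Stmn2, a tubulin-binding phosphoprotein of the growth cone, was measured by a pair of probe sets that gave nearly the same course. Probe set 1370041_at read 3939 at 0 h, 2221 at 2 h, 1901 at 6 h, 932 at 12 h, 1420.2 at 24 h, 889.7 at 48 h and 1254 at 72 h, and 1370042_at read 3909, 1961, 1693, 896, 1634, 1012 and 1354. At no time did their log2 changes differ by more than 0.21. At 12 h they stood at 0.237 and 0.229 of the 0 h signal, and both were higher at 72 h than at 12 h, 1.35 and 1.51 times.

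The membrane protein gene Gap43 had the deepest late course. Its signal was 4350.2 at 0 h, 2752 at 2 h, 2142 at 6 h, 1476 at 12 h, 1786 at 24 h, 729 at 48 h and 751 at 72 h. Between 24 and 48 h it dropped further than any other member, to 0.408 of the 24 h signal, and at 72 h it stood at 0.173 of the 0 h signal, where 112 of the 17709 tested probe sets had a lower ratio. Dcx, in contrast, had its lowest value at 12 h. The Dcx signal was 946 at 0 h, 431 at 2 h, 408 at 6 h, 193 at 12 h, 305 at 24 h, 202 at 48 h and 209.9 at 72 h. At 12 h its ratio of 0.204 was undercut by only 38 of the 17709 tested probe sets.

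The 2 collapsin response mediator genes followed different courses. Crmp1 read 3127, 1519, 1445, 786, 1187, 801 and 1146 on the 7 arrays in order of time, and so was higher at 72 h than at 12 h, 1.46 times. Dpysl3, near the floor of the tested range, read 190.1, 188, 159.8, 157, 177, 105 and 102. It was the member that changed least at first, with a ratio of 0.824 at 12 h, where 4281 of the tested probe sets had a lower one, and at 72 h it was at 0.534. Across the members the 12 h ratio thus ranged between 0.181 and 0.824, and the 72 h ratio between 0.173 for Gap43 and 0.534 for Dpysl3.

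A rule of size was applied at each time, a signal at least 2 times higher or lower than on the 0 h array that also differed from it by 200 units or more. It is no test, since each time had 1 array. A probe set below 200 at 0 h cannot be lower by this rule, which held for the 5 member probe sets with a mean signal below 100. On the 0 h array 42.5% of all non-control probe sets lay below 100. The shares over all probe sets therefore include many that could not be lower. After 2 h, 4 of the 17 probe sets (2 of Mapt, Dcx and Crmp1) were lower by this rule, beside 0.470% of all non-control probe sets. After 6 h it was 8 of 17, with Map2, Stmn2 and Gap43 added, beside 1.22%. At 12 h 11 of 17, from 8 of the 9 genes, were lower, beside 1.71% of all. At 24 h the count was 9, without Tubb2b and Map2, beside 1.31%. It was again 11 at 48 h, beside 3.05%, and at 72 h, beside 3.54%. Dpysl3 was the only gene that never passed. Its brighter probe set read 190.1 and its dimmer one 24.8 at 0 h, so neither could be lower by the rule. No member was higher by the rule at any time, while 2.60% of all probe sets were higher at 72 h. Set against 12 h, no member passed in either direction at 72 h, where 2.63% of all probe sets did. At 24 h against 12 h, 1 member probe set passed, Mapt 1387071_a_at, which was higher, beside 0.132% of all probe sets in either direction. At 2 h none of the members passed once all arrays were brought to a common median, while 5 of 17 passed with quantile normalization. The first of these counts thus depends on which scaling is used.

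From array to array the tested probe sets moved largely together. All 12 were lower at 2 h than at 0 h, with a median ratio of 0.545, and 11 of the 12 were lower at 6 h than at 2 h, Mapt 1368137_at being the exception. All 12 were lower at 12 h than at 6 h, with a median ratio of 0.552. At 24 h all 12 were higher than at 12 h, with a median ratio of 1.51, and at 48 h all 12 were lower than at 24 h, with a median ratio of 0.623. At 72 h 10 of the 12 were higher than at 48 h, all but Tubb2b and Dpysl3, with a median ratio of 1.14. The medians over all tested probe sets stayed between 0.991 and 1.02 at these 6 steps. The order of lower at 2, 12 and 48 h and higher at 24 h, picked out after the values were seen, was shared by 12 of 12 member probe sets and by 9.77% of the 17709 tested. These probe sets lie on the same arrays, so their agreement is a property of the 7 pools and is not repeated in other cultures. With the arrays scaled to the same median, or quantile normalized, Dpysl3 was no longer lower at 2 h and 11 of 12 shared the order.

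**Figure D2:**
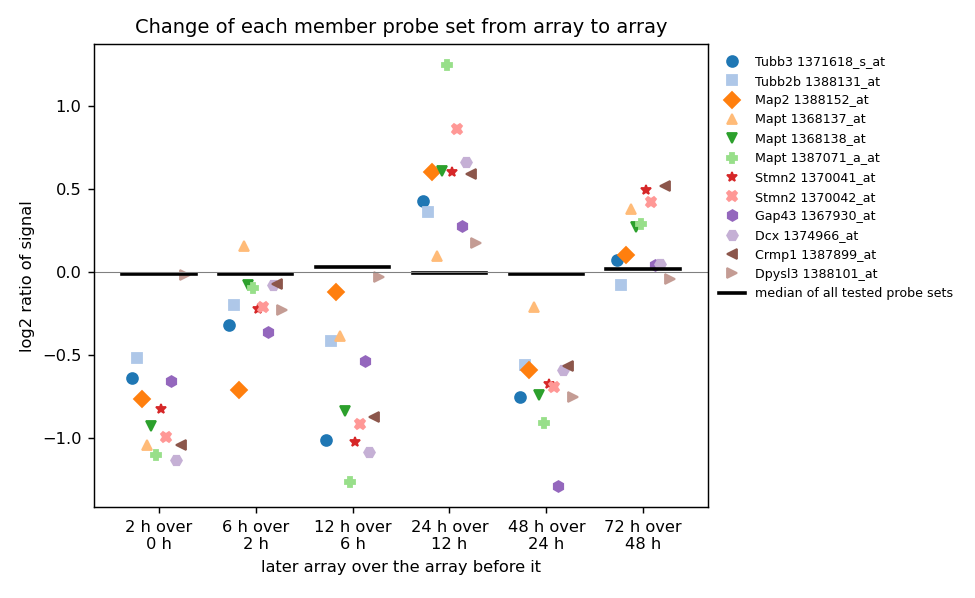
Log2 ratio of signal between each array and the one before it (vertical axis) for the 6 steps in time (horizontal axis), with 1 symbol per tested member probe set and a black bar for the median of all tested probe sets. All 12 symbols lie below 0 at 2 h, 12 h and 48 h and above 0 at 24 h, while the black bars stay near 0.

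The members differed in where they were lowest. A set of 5 probe sets had their minimum at 12 h (Map2, Crmp1, Dcx and 1 each of Mapt and Stmn2), 5 at 48 h (Tubb3, Gap43, the other Stmn2 and the other Mapt probe sets) and 2 at 72 h (Tubb2b and Dpysl3). At 72 h, 8 of the 12 read above their 12 h signal and 4 below it, namely Tubb3, Tubb2b, Gap43 and Dpysl3. The 12 h array was taken for this comparison because earlier results of these data had neuronal genes lowest there.

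To test a change over the whole course, a line in hours was fitted with limma to log2(signal + 32) of all 7 arrays, a scale that understates the change of dim probe sets. The spread in this test is that around the line. Over 72 h Gap43 fell by 2.19 on the log2 scale (standard error 0.36, limma adjusted p = 0.0023), Tubb3 by 1.75 (0.44, adjusted p = 0.0154), Tubb2b by 1.05 (0.26, adjusted p = 0.0144) and Dpysl3 by 0.76 (0.21, adjusted p = 0.0241). Thus 4 of the 12 probe sets fell and none rose, while 14.1% of all 17709 probe sets fell and 15.0% rose. The other 8 had fitted changes below 0 too, with adjusted p between 0.0667 for Dcx and 0.331 for Mapt 1368137_at, and 7 of the 12 had an unadjusted p under 0.05. The 4 that passed were those whose 72 h signal lay below their 12 h signal. With time as log2(hours + 1) 11 of the 12 fell, all but Dpysl3, beside 2106 of all 17709. Without the 48 h array only Gap43 fell, and without the 72 h array only Gap43 and Tubb3. Without the 2 h array Dpysl3 was lost, and without the 12 h array 8 probe sets fell. Over all tested probe sets 2493 fell and 2650 rose in the reported fit. It was 1609 and 1606 without the 48 h array, and 1266 and 1244 without the 72 h array. Without the 2 h array 1672 fell and 1868 rose, and without the 12 h array 2414 and 2514. These stand beside every later count of linear calls with 1 of these arrays left out.

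A second fit had a separate slope before and after 12 h. The join was chosen with earlier results of these data known, in which neuronal genes were lowest at 12 h. Over the first 12 h Stmn2 1370041_at fell by 1.64 (standard error 0.26, limma adjusted p = 0.0362) and Tubb3 by 1.57 (0.22, adjusted p = 0.0284). These were 2 of 12, where 0.107% of all tested probe sets fell and 0.311% rose in the same interval. All 12 fitted changes were below 0, with a median of -1.38, and 11 of the 12 had an unadjusted p under 0.05, but for the other 10 the adjusted p lay between 0.0594 for Dcx and Crmp1 and 0.747 for Dpysl3. Both calls were lost without the 0, 2, 12 or 72 h array and with the join at 24 h, whereas 9 probe sets fell without the 24 h array. Over all tested probe sets 19 fell in the reported fit, and 0, 2, 0 and 3 without the 0, 2, 12 and 72 h array. It was 2 with the join at 24 h and 94 without the 24 h array, so the number of calls changed over the whole array too. After 12 h Gap43 was the only 1 of the 12 to fall, by 1.16 (0.30, adjusted p = 0.0329), where 7.35% of all tested probe sets fell and 6.20% rose. Without the 12, 24, 48 or 72 h array Gap43 did not pass. Over all tested probe sets 1301 fell after 12 h in the reported fit, and 600, 635, 843 and 28 in these runs. Of the 12 late changes 6 were below and 6 above 0, the highest being 0.31 ± 0.33 for Crmp1 and 0.31 ± 0.36 for Stmn2 1370042_at (SE of the fit), neither of which passed. With the join moved to 6 h, 11 of the 12 later changes were below 0. These cover 6 to 72 h and so include the step from 6 to 12 h, at which all 12 were lower. Without the 12 h array 10 of 13 tested had a late change below 0, so the direction of most members after 12 h was not settled.

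**Figure D3:**
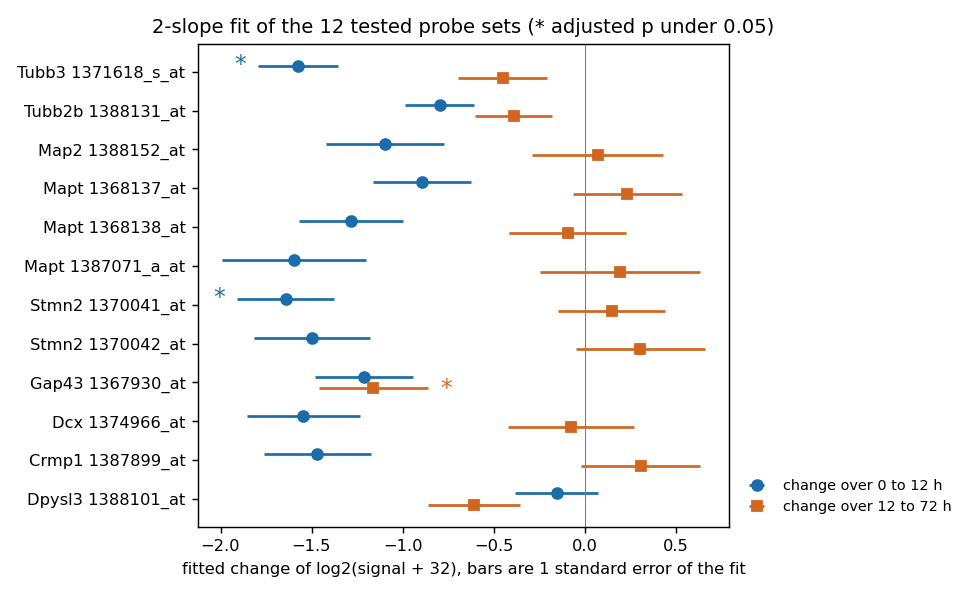
Fitted change of log2(signal + 32) over 0 to 12 h (circles) and over 12 to 72 h (squares) for each of the 12 tested probe sets (rows), with bars of 1 standard error of the fit and a star where the adjusted p was under 0.05. The circles all lie below 0, and among the squares only that of Gap43, at -1.16, carries a star.

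The closest relatives of the members did not all follow them. Of 9 other tubulin genes tested, 3 fell by the linear fit and 1 rose, with a median log2 change of -0.41 at 12 h and -0.44 at 72 h. Tubb2a is near-identical in sequence to Tubb2b, so that the probe sets of the pair may share signal. It was at 0.482 of its 0 h signal at 72 h and fell (adjusted p = 0.0204), though it did not pass without the 2 or the 48 h array. The widely expressed Tubb5 was at 0.540 and fell too (adjusted p = 0.00278). Tuba8, an alpha tubulin, rose to 2.43 times its 0 h signal (adjusted p = 0.00611), and Tubb4a, at 0.477 at 12 h and 0.727 at 72 h, did not pass (adjusted p = 0.842). Among 29 other microtubule-associated proteins and stathmins, 6 fell and 4 rose, beside the 14.1% and 15.0% of all tested probe sets given above, and the medians were 0.09 at 12 h and -0.06 at 72 h. Stmn3, a neuronal stathmin, fell and had the same order of steps as the members, with ratios of 0.229 at 12 h and 0.223 at 72 h (adjusted p = 0.0362). Stmn1, the stathmin of dividing cells as well as neurons, was at 0.479 and 0.539 and did not pass (adjusted p = 0.115). Map6, which protects microtubules against cold, was at 0.790 at 12 h and 0.454 at 72 h and fell (adjusted p = 0.00113). The calls of Tubb5 and Map6 held with any 1 array left out, that of Tuba8 was lost without the 72 h array, and that of Stmn3 without the 2, 24, 48 or 72 h array. Without the 72 h array only 1 of the 29 microtubule-associated genes fell and 1 rose, and 5 of the 9 tubulins fell and none rose.

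Within the collapsin response mediator and doublecortin family, 5 other genes were tested, of which 2 fell and 1 rose. Dpysl5, a mediator confined largely to developing neurons, was at 0.297 at 12 h and 0.284 at 72 h (linear adjusted p = 0.0412, first 12 h adjusted p = 0.0283). The abundant Dpysl2 fell less, to 0.693 at 72 h (adjusted p = 0.0169), and the doublecortin-like kinase Dclk2 rose to 1.48 times (adjusted p = 0.0140). Of 26 growth cone membrane and actin genes 5 fell and none rose, beside 14.1% and 15.0% of all tested probe sets. Their medians were -0.56 at 12 h and -0.63 at 72 h. Among them Marcks, an actin-binding substrate of protein kinase C, was at 0.465 at 72 h (adjusted p = 0.000886), Fscn1, the actin bundler fascin, at 0.413 (adjusted p = 0.00144) and Gpm6a, a membrane glycoprotein of neurites, at 0.251 (adjusted p = 0.0408). Of 24 guidance genes 5 fell and 2 rose, again beside 14.1% and 15.0% of all tested probe sets. These counts and those of the growth cone, microtubule-associated and motor genes are thus no result about the lists. The ephrin receptor gene Epha3 was at 0.227 at 72 h (adjusted p = 0.0150) and the semaphorin receptor gene Nrp2 at 2.03 times (adjusted p = 0.0309). Of 16 genes of axonal transport motors 1 fell and 3 rose, with the dynein heavy chain gene Dync1h1 at 1.68 times its 0 h signal at 72 h (adjusted p = 0.0141). Leaving out the 48 h array ended the calls of Dpysl5, Dpysl2, Gpm6a, Epha3, Nrp2 and Dync1h1, and leaving out the 72 h array those of Dpysl2, Dclk2 and Gpm6a. Nrp2, Gpm6a and the linear call of Dpysl5 were also lost without the 2 h array, Gpm6a without the 24 h array, and Dpysl5 without the 0 or the 6 h array in the linear fit and without the 0, 12 or 72 h array in the first 12 h. Marcks and Fscn1 passed with any 1 array left out. Without the 48 h array 3 growth cone genes and 3 guidance genes fell and no guidance or motor gene rose.

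The median of the members lay below that of 24 tested markers of neurons that are not among them, though the difference was not tested. The median log2 change of the 9 members, each by its brightest probe set, was -0.76 at 2 h, -1.04 at 6 h, -1.89 at 12 h, -1.27 at 24 h, -2.06 at 48 h and -1.63 at 72 h. For the other neuronal markers it was -0.72, -0.84, -1.44, -1.002, -1.35 and -1.13 at the same times, and over all tested probe sets it stayed between -0.04 and 0.01. At 12 h 15 of 28 other neuronal genes on the array were lower by the rule of size, beside 1.71% of all non-control probe sets. At 72 h it was 14, beside 3.54%. The neuron-specific genes Sncb (beta-synuclein) and Nsg1, a protein of endosomes, were at 0.130 and 0.223 of the 0 h signal at 72 h and fell (adjusted p = 0.0147 and 0.0187), although Sncb did not pass without the 72 h array, nor Nsg1 without the 2 or the 48 h array. In all 5 of the 24 fell and none rose by the linear fit, beside 14.1% and 15.0% of all tested probe sets. The count that fell was 2 without the 2 or the 48 h array and 11 without the 12 h array, so it is no result about the list. In pooled RNA of a mixed culture, fewer neurons and less of these RNAs per neuron cannot be told apart.

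**Figure D4:**
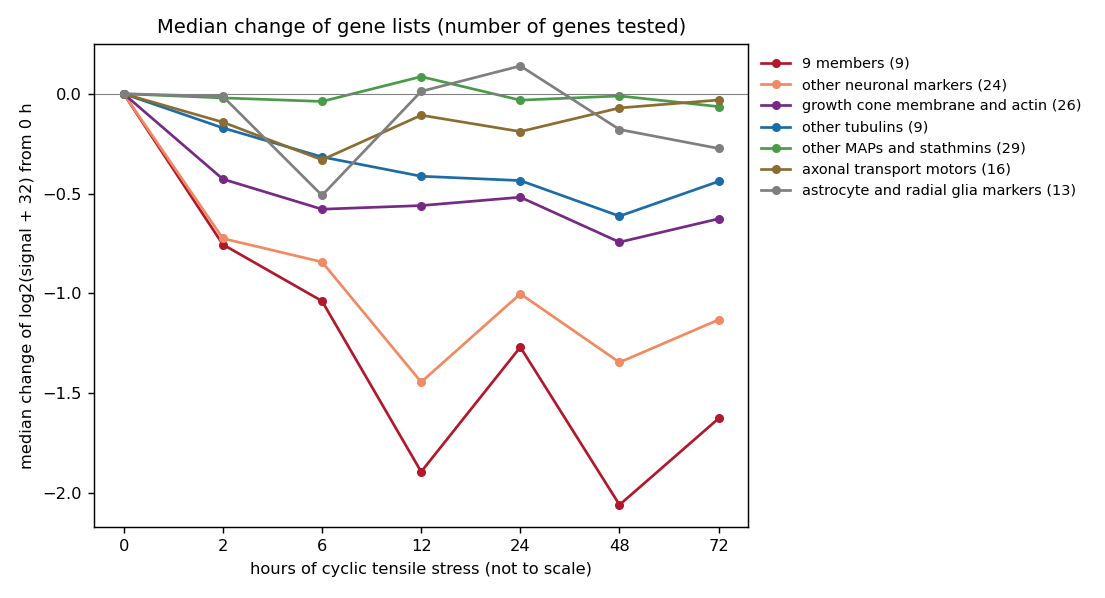
Median change of log2(signal + 32) against the 0 h array (vertical axis) by hours of stress (horizontal axis, not to scale) for the 9 members and 6 other gene lists, with the number of genes tested in brackets. The members and the other neuronal markers share the low points at 12 and 48 h and the return at 24 h, and the members are lower, at -1.89 and -1.63 at 12 and 72 h.

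Markers of other cells in the culture mostly moved differently, but those of the oligodendrocyte lineage shared part of the members' course. Over the 7 tested, the median on the log2 scale went from -0.41 at 2 h and -0.60 at 6 h to -0.76 at 12 h. It was then -0.45 at 24 h, -0.36 at 48 h and -0.48 at 72 h, without the members' low point at 48 h. All 7 were below their 0 h signal at 12 h, and 5 were higher at 24 h than at 12 h. The summed signal of 14 astrocyte and radial glia genes was 85931 at 0 h and lay between 73956 and 96482 afterwards. Such sums are weighted to bright genes, here Vim with 22170 at 0 h. The median log2 change of the 13 tested was -0.51 at 6 h, 0.01 at 12 h, 0.14 at 24 h and -0.27 at 72 h. By the linear fit 2 of the 13 fell (1 without the 48 h array) and 1 rose (none without the 72 h array). Over all tested probe sets 14.1% fell and 15.0% rose, so these 2 counts are no result about the list. For 14 microglia and macrophage genes the sum was 75214 at 0 h and between 49368 and 96880 afterwards, with the lowest value at 72 h. Of the 12 tested, 8 fell by the linear fit (5 without the 72 h array) and 9 fell after 12 h in the 2-slope fit, and their median log2 change was 0.12 at 12 h and -0.68 at 72 h. Skeletal muscle genes were also present, which the stated dissection of spinal cord does not name, and their sum was 15986 at 0 h and between 4030 and 8904 later. Their median log2 change was -1.36 at 2 h, -1.35 at 12 h, -0.89 at 48 h and -2.03 at 72 h, so muscle transcripts were lower on the same arrays as the members but had their own order of steps. The proliferation markers, of which 12 of 12 fell (10 without the 2 or the 48 h array), had a median of -0.54 at 12 h and -2.15 at 72 h. The signal ratio of the 3' to the 5' beta-actin control probe sets was 1.82 at 0 h, 1.53 at 2 h, 1.83 at 6 h, 1.95 at 12 h, 2.20 at 24 h, 2.54 at 48 h and 2.62 at 72 h, and that of Gapdh lay between 1.09 and 1.17. The part of cell composition and RNA quality in the members' course was not tested.

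Genes with the most similar course were sought by the correlation of their log2(signal + 32) with the mean of the 9 members over the 7 arrays, among 3011 named probe sets of other genes with a range of at least 1 on the log2 scale. The 10 highest had Pearson's r between 0.991 and 0.999. In order they were Stmn3, Mmp24, Caly, C8h11orf87, Rimklb, Dclk1, Nsd2, Reep1, Nsg2 and Sult4a1. Caly, which encodes a vesicle protein of neurons, was the lowest of these at 12 h, with a ratio of 0.150, and Sult4a1, a brain sulfotransferase, the least changed, with 0.525. Stmn3 read 2415 at 0 h, 553 at 12 h, 933 at 24 h, 471 at 48 h and 539 at 72 h. The Dclk1 probe set in this group, 1389706_at, was at 0.365 of its 0 h signal at 12 h, whereas the brighter probe set of the same gene was at 1.05, so that the gene's probe sets disagreed. The members' own r with the mean, to which they contribute, was between 0.791 for Dpysl3 and 0.994 for Mapt 1368138_at. With 7 points that share the pools and the scaling of each array, these coefficients describe likeness and nothing more.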

How the data were processed

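The authors hybridized pooled RNA to 1 Affymetrix Rat Genome 230 2.0 array per time and deposited a MAS5.0 signal intensity per probe set, computed in GCOS and scaled globally to a trimmed mean of 500. These values are linear and already background-subtracted and scaled, so low signals are unreliable. Between 42.5% and 44.3% of probe sets per array lay below 100, and array medians were 145 to 162. With 1 array per time, the number of arrays limits every value, and residual spread is not that between cultures. Detection calls were not used here.

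From the deposited intensities, ratios to 0 h and the threshold of the methods (ratio 2, difference 200) were computed over 31042 probe sets, after leaving out 57 controls. Linear and 2-slope fits (join at 12 h) used limma 3.58.1 in R 4.3.3 (lmFit, eBayes with trend) on log2(signal + 32) for the 17709 probe sets whose signals averaged 100 or more, with 5 and 4 residual degrees of freedom, and p-values were adjusted by Benjamini-Hochberg (threshold 0.05). The fits were also run on simulated data with independent noise, which lacks the pools and scaling that probe sets of an array share. Other values came from Python 3.11.15 (pandas 2.3.3, numpy 2.4.6). Symbols came from the platform annotation, and listed genes were read from their brightest probe set. The members, lists, 2-slope fit and tests were chosen with earlier results of these data known. Named genes were all members, up to 4 per list past the threshold at 12 or 72 h with the lowest adjusted p (filled by brightness), and the 10 most alike by correlation. Alternatives covered thresholds, scaling, baseline, pseudocount (16, 64), filter, form of time, join (6, 24 h) and each array left out.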

Additional observations from a re-analysis of the deposited data

How the results depend on the processing

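No paired analysis was possible because each time had a single array. With a ratio of 1.5 and a difference of 100, 10 member probe sets were lower at 2 h in place of 4, and set against 12 h 1 was lower and 2 were higher at 72 h in place of 0. With a ratio of 3 the counts were 0 at 2 h, 0 at 6 h in place of 8, 1 at 24 h in place of 9 and 6 at 72 h in place of 11. With each array scaled to the same median they were 0 at 2 h and 4 at 6 h, and 1 was lower at 72 h than at 12 h. That scaling moved the median of all tested probe sets against 0 h by 0.13 at 2 h, 0.12 at 6 h and 0.14 at 12 h on the log2 scale. With quantile normalization the counts were 5 at 2 h and 7 at 6 h. Against the mean of 0 and 2 h the counts were 1 at 6 h and 3 at 24 h, and the members' median was -1.53 at 12 h and -1.27 at 72 h, in place of -1.89 and -1.63. Under the other alternatives these medians lay between -1.93 and -1.76 at 12 h and between -1.70 and -1.47 at 72 h. The counts at 12 h (8 to 12) and 48 h (9 to 12) stayed within 1.5 times of 11 in every alternative run. Shares over all probe sets under these alternatives of the rule of size are not given here, so a changed count may be general.

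Of the linear calls, 4 by the reported fit, 11 were made with time as log2(hours + 1) and 11 with time as rank, and leaving out 1 array gave 1 (without 48 h) to 8 (without 12 h). Over all tested probe sets 2493 fell in the reported fit, and 2106 and 2416 with these forms of time. It was 1609 without 48 h and 2414 without 12 h. Gap43 fell in all 15 alternatives, with adjusted p between 0.000874 and 0.0101. For 0 to 12 h, 2 calls became 0 with no filter or a join at 24 h, 7 with the same median, and 0 to 9 with 1 array left out. Over all tested probe sets 19 fell in the reported fit, 0 with no filter and 2 with the join at 24 h. It was 136 with the same median and 94 without the 24 h array. For 12 to 72 h, the single call became 0 with no filter or a join at 24 h, and 0 to 1 with 1 array left out. With a join at 6 h, where the late slope covers 6 to 72 h, it became 3 (Gap43, Tubb2b and Tubb3). Over all tested probe sets 1301 fell in the reported fit, 805 with no filter, 193 with the join at 24 h and 2331 with that at 6 h. No member rose in either the linear or the late fit under any alternative run. The cause of these changes was not tested, beyond the fewer arrays or the further dim probe sets that the alternatives themselves bring.

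Several late slopes that did not pass any test changed sign. With the join at 6 h they were -0.039 for Map2, -0.22 for Mapt 1387071_a_at, -0.31 for Stmn2 1370041_at, -0.052 for Stmn2 1370042_at and -0.066 for Crmp1. Those slopes cover 6 to 72 h, and so also the step from 6 to 12 h. With the join at 24 h they were -0.077 for Map2 and -0.022 for Mapt 1387071_a_at, and with the same median -0.0039 for Map2. With 1 array left out they ranged between -0.10 and 0.34 for Map2, -0.090 and 0.33 for Mapt 1368137_at, -0.35 and 0.14 for Mapt 1368138_at, -0.42 and 0.59 for Mapt 1387071_a_at, -0.25 and 0.37 for Stmn2 1370041_at, -0.033 and 0.60 for Stmn2 1370042_at, -0.37 and 0.14 for Dcx and -0.039 and 0.52 for Crmp1. The direction after 12 h of these 8 probe sets is therefore not settled by 7 arrays.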

Other observations

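Among 17 tested genes linked to axon injury and regeneration, 6 fell and 3 rose by the linear fit. Their median log2 change was -0.08 at 12 h and -0.12 at 72 h. Over all tested probe sets 14.1% fell and 15.0% rose, which stands beside every count of this paragraph. The 3 that rose here and the 1 oligodendrocyte gene that fell are near these shares and are no result about the lists. Gadd45a, a stress gene that axotomized sensory neurons induce, rose to 3.59 times its 0 h signal at 72 h (limma adjusted p = 0.00282), and Cap2, an actin regulator, fell to 0.308 (adjusted p = 0.0152), but neither passed without the 72 h array, where 4 of the list fell and none rose. Of 10 oligodendrocyte lineage genes on the array, 7 were tested and 1, Olig1, fell (not without the 48 h array), and their median was -0.76 at 12 h and -0.48 at 72 h. Of 12 fibroblast and meningeal genes 6 fell and 1 rose, of 4 Schwann and neural crest genes tested 1 fell, and of 7 reference genes 2 fell. Without the 72 h array 3 of the fibroblast genes fell and none rose, and none of the reference genes fell without the 2, 48 or 72 h array.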
